A study of Mus musculus with 32 samples.

Results

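Slc24a2, Rgs8, Cdk19, Vldlr, Bcat1 and Polr3g are 6 protein-coding genes that have a row in the authors' deposited table pairing Ago2-bound regions with microRNAs of the imprinted miR-379/410 cluster, and whose RNA differed clearly between deletion and control induced neurons (iNs). That table named 636 genes. Under these names 616 gene entries had enough counts to be fitted in iNs, with Sept2 present more than once. The 6 genes were selected on the iN deletion contrast itself, so every value from that contrast is given below as a description, without a test. Selection was not strictly by size. By the size of the log2 fold change the 6 genes ranked 8, 10, 12, 13, 14 and 26 among the 616, and 20 other genes of the table changed by at least as much as Polr3g, the smallest of the 6 (10 higher and 10 lower). Polr3g stood at -0.73, and Msmo1, the next gene below it in size, at -0.72.

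The starting cells were hybrid mouse embryonic stem cells, or ESCs, sampled at day 0, and the iNs were sampled at day 10 after doxycycline had switched on a TetO-Ngn2 transgene, Ngn2 being a neurogenic transcription factor. Control cells were Mirg(fl/+), and so carried a floxed allele. Deletion cells were Mirg(Delta/+) and lacked the maternal copy of the microRNA cluster. Each of the 4 combinations of cell type and genotype had 3 rRNA-depleted RNA libraries and 3 small RNA libraries. Ago2 crosslinking and immunoprecipitation (CLIP, which recovers RNA fragments bound by the microRNA effector protein Ago2) was done only in control iNs, with anti-HA antibody on cells expressing HA-Ago2 or untagged Ago2. The labels did not say whether the replicates were separate clones or cultures, so the p-values measure the spread between these libraries, which may be technical.

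MicroRNAs guide Argonaute proteins such as Ago2 to messenger RNAs through the seed, the bases near the 5′ end of the microRNA that pair with the target, and binding usually lowers the stability or the translation of that target. The miR-379/410 cluster lies in an imprinted domain of mouse chromosome 12, is transcribed from the maternal chromosome together with the noncoding host RNA Mirg, and is known for its activity in neurons. The 6 genes have separate roles. Slc24a2 is a calcium exporter, Rgs8 a brake on G protein signalling, Cdk19 a kinase of the Mediator complex, Vldlr a receptor for Reelin, Bcat1 an aminotransferase of branched-chain amino acids, and Polr3g a subunit of RNA polymerase III.

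The deposited table matched the 6 genes to 9 mature microRNAs. RefSeq (GRCm38.p6) gave the mature sequence of 7 of them, shown here because the seed is the part of a microRNA that pairs with a target. Pairing of these seeds with the bases of the sites was not checked here. All 7 lie on the plus strand of chromosome 12, and capitals mark the seed, bases 2 to 8 from the 5′ end.
miR-411-3p, matched to Rgs8: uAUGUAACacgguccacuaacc
miR-376b-5p, matched to Rgs8: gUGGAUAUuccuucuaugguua
miR-376c-5p, matched to Rgs8: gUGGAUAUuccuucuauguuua
miR-381-3p, matched to Vldlr: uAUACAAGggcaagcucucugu
miR-495-3p, matched to Bcat1: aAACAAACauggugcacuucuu
miR-539-5p, matched to Slc24a2 and Polr3g: gGAGAAAUuauccuuggugugu
miR-412-3p, matched to Cdk19: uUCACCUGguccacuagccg
Only miR-376b-5p and miR-376c-5p shared a seed among these 7, and the table listed them together at 1 site. The other two matched microRNAs, miR-539-3p (listed together with miR-381-3p) and miR-376c-3p, both belonged to Vldlr.

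Mirg, the host RNA of the deleted cluster, was counted first as a check of the labels. It had 455 to 932 counts in the 6 control RNA libraries and 0 to 2 in the 6 deletion libraries. The RNA libraries held 14904735 to 21499106 counts, and the small RNA libraries 744307 to 1532255 counts of mature microRNAs. The summed level of 8 neuron markers, in counts scaled to library size (CPM), was 5685 to 5813 in the control iN libraries, 5928 to 6031 in the deletion iN libraries and 169.6 to 201.7 in ESC libraries. The summed level of 8 pluripotency markers was 2136 to 2413 CPM in ESC libraries, 14.2 to 15.4 in the control iN libraries, 7.62 to 8.12 in the deletion iN libraries, with none of its 8 genes at 0. Both marker sums thus differed with the iN deletion contrast, without overlap between the groups. They also stood apart between the ESC groups, the pluripotency sum only narrowly. Neuron markers reached 169.6 to 176.9 CPM in control and 188.7 to 201.7 in deletion ESCs. Pluripotency markers reached 2289 to 2413 CPM in control and 2136 to 2288 in deletion ESCs. The part of these differences in the results below was not tested. Of the glial markers, Gfap had no count in any iN library, and the 5 glial genes together reached 40.5 to 43.5 CPM without the deletion and 43.3 to 49.7 with it.

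Differences with the deletion were common among all genes. In iNs 25.6% of all 16028 genes fitted were called different between deletion and control (edgeR quasi-likelihood test, Benjamini-Hochberg adjusted p under 0.05), and in 40.8% the 3 deletion libraries did not overlap the 3 control libraries. All 6 members were in both sets, which their selection fixed.

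**Figure D1:**
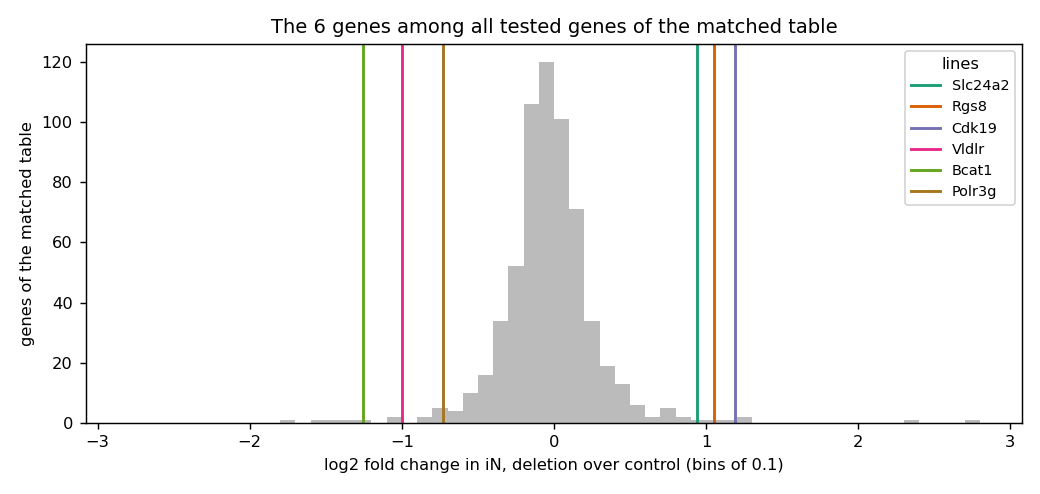
Number of genes of the matched table (vertical axis) by log2 fold change in iNs, deletion over control, in bins of 0.1 (horizontal axis). The 616 gene entries fitted are shown, and vertical lines mark the 6 genes. The lines stand at -1.26, -1.0 and -0.73 on the left and at 0.94, 1.05 and 1.19 on the right, with single genes farther out on both sides.

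The matched regions were short and lay toward the 3′ end of each gene. The table held 8 rows for the 6 genes, covering 7 regions of 34 to 114 bases, all inside the RefSeq bounds of their genes and 1815 to 5938 bases from the gene's 3′ end. Whether a region is exonic or lies in a UTR was not analysed here, and neither were the bases of the sites. The folds and p-values of the regions are the authors' deposited values, with CLIP replicates not kept apart, so they have no error here. The median deposited log2 fold over untagged Ago2 was -0.13 over all 22400 distinct regions and 1.58 over the 997 rows of the matched table.

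The 2 regions of Rgs8 were 41 and 114 bases long, at chr1:153694844-153694884 and chr1:153695409-153695522 on the plus strand. In the authors' deposited table the first, matched to miR-411-3p, had a log2 fold of 2.99 over untagged Ago2 (−log10 p 1.41). The second, matched to miR-376b-5p and miR-376c-5p, had 3.24 (−log10 p 3.65). Over input, the unprecipitated material, the second region stood at 4.65 (−log10 p 8.59), above 96.5% of all regions.

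Vldlr had 1 matched region with 2 sites, at chr19:27249464-27249542 on the plus strand. Its deposited log2 fold was 3.21 over untagged Ago2 (−log10 p 5.33) and 3.88 over input (−log10 p 12.2). The site of miR-381-3p and miR-539-3p covered 7 bases inside the region, whereas 5 of the 8 bases of the miR-376c-3p site lay beyond its end. Among the matched regions of the 6 genes, this one alone passed both a log2 fold of 3 and a −log10 p of 5 over untagged Ago2.

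The region of Cdk19, at chr10:40480335-40480385 on the plus strand, was matched to miR-412-3p. Its deposited log2 fold was 1.64 over untagged Ago2 (−log10 p 2.01) and 4.27 over input (−log10 p 9.37). Cdk19 had 4 further regions in the deposited list with no match in this table, and 3 of these had larger folds over untagged Ago2, from 3.16 to 3.54, of which 2 also passed a log2 fold of 3 and a −log10 p of 5. The match to miR-412-3p was therefore not at the gene's region of highest fold over untagged Ago2.

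The regions of Slc24a2 (chr4:86986810-86986843, minus strand) and Polr3g (chr13:81675652-81675697, minus strand) were both matched to miR-539-5p. These regions and the first Rgs8 region carried identical deposited values, a log2 fold of 2.99 over untagged Ago2 with a −log10 p of 1.41, and 3.40 over input. In all, 72 regions of the list shared that fold over untagged Ago2. For Slc24a2, 4 of the site's 7 bases lay outside the region, and for Polr3g 2 of 7.

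Bcat1 had the weakest region, at chr6:144999773-144999861 on the minus strand, matched to miR-495-3p. Its deposited log2 fold was 0.85 over untagged Ago2, with a −log10 p of 0.81, and 1.81 over input (−log10 p 3.73), above 31.3% of all regions. Of the site's 7 bases, 3 lay outside the region. The deposited table marks each row with the letter C or N, whose meaning was not given in the sources used here. C stood at the miR-411-3p site of Rgs8 and at both sites of Vldlr, and N at the other 5 rows.

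**Figure D2:**
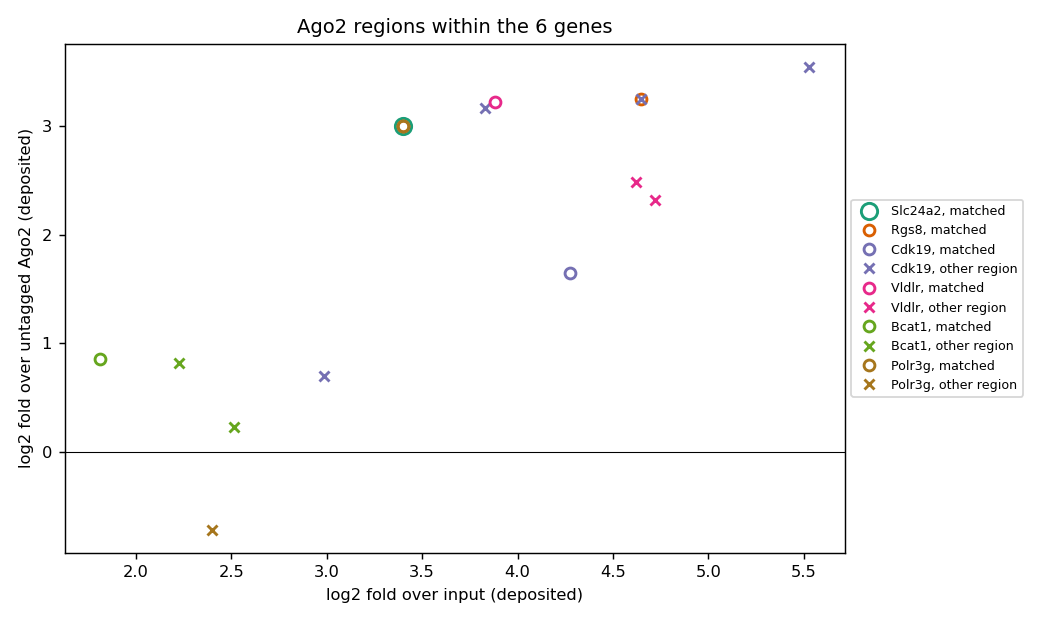
Deposited log2 fold of HA-Ago2 immunoprecipitate over untagged Ago2 (vertical axis) and over input (horizontal axis) for each of the 16 regions within the 6 genes; circles are matched regions and crosses the others. The circles of Slc24a2, Polr3g and the first Rgs8 region fall on 1 point at 2.99 and 3.40, and the Bcat1 circle lies lowest of the circles, at 0.85.

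The matched microRNAs differed widely in level, and for 3 of the 6 genes the only matched microRNA was at the limit of detection. miR-381-3p, matched to Vldlr, had 5065, 5123 and 5745 counts in the control iN libraries and 1, 2 and 3 in the deletion libraries. It ranked 45 of the 939 mature microRNAs with a count in control iNs and held 2.95% of the counts of the cluster's 67 named mature microRNAs. Its fitted log2 fold change with the deletion was -10.77 ± 0.20 (SE, n = 3 against 3), and every control library stood far above every deletion library.

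miR-376b-5p, matched to Rgs8, had 2443, 2717 and 2772 counts in control iNs and 2, 3 and 2 in deletion iNs (log2 fold change -9.55 ± 0.21). miR-376c-3p, the second site of Vldlr, had 1350, 1372 and 1369 counts against 0, 3 and 1 (-9.36 ± 0.25). These 3 microRNAs were the abundant ones of the 9.

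miR-495-3p, matched to Bcat1, had 77, 66 and 60 counts in control iNs. miR-376c-5p had 56, 64 and 52, and miR-539-3p 40, 38 and 52. All 3 were at 0 in each deletion iN library, and set against a floor of 3 counts over the deletion group they were at least 47.3-fold, 40.1-fold and 30.3-fold lower. The floor covers counting error only, since a count of 0 still allows up to 3.

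miR-411-3p, the first site of Rgs8, had 3, 14 and 18 counts in control iNs and none in deletion iNs, at least 8.15-fold lower. miR-539-5p, matched to Slc24a2 and Polr3g, had 1, 9 and 1 counts in control iNs, and miR-412-3p, matched to Cdk19, had 1, 0 and 6. Neither had a count in deletion iNs, and their falls were bounded only at 2.56-fold and 1.63-fold. In control iNs replicate B held 9 of the 11 counts of miR-539-5p and replicate C 6 of the 7 of miR-412-3p, and without that library each was under the floor of 3 counts and no fall could be bounded. miR-539-5p made up 0.00204% and miR-412-3p 0.0013% of the cluster's counts in control iNs, far below the 2.95% of miR-381-3p.

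In iNs 6 of the 9 microRNAs passed the count filter and all 6 fell (adjusted p at most 4.5e-10 by edgeR's quasi-likelihood test), where 24.2% of all 433 microRNAs tested fell. In ESCs 7 of 9 passed the filter and all 7 fell, against 13.8% of 450. These microRNAs lie in the deleted cluster, so their fall was fixed by the genotype and serves only as a check of the deletion. Both background shares include the cluster's own microRNAs. In ESCs miR-411-3p had 98, 113 and 111 counts in control libraries and 1, 0 and 1 in deletion libraries, 178-fold lower (95% exact counting interval 48.8 to 1474). miR-412-3p had no count in any ESC library, and miR-539-5p had 11, 7 and 3 counts in control and none in deletion ESCs.

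Between control ESCs and control iNs the 7 microRNAs tested moved in both directions, where 85.7% of 523 microRNAs were called. miR-381-3p had 1893, 2040 and 1969 counts in control ESCs and was higher in iNs (log2 fold change 0.98 ± 0.15, adjusted p 1.7e-05, edgeR). miR-376b-5p had 456, 469 and 744 and was also higher in iNs (1.84 ± 0.16). miR-495-3p, with 257, 127 and 205, was lower in iNs (-2.0 ± 0.29), as was miR-411-3p (-3.62 ± 0.36).

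The remaining 3 depended on the processing. miR-376c-3p was lower in iNs by -0.69 ± 0.14 (adjusted p 0.00021), but at -0.19 (adjusted p 0.42) when libraries were scaled to all features of the file. miR-376c-5p was lower by -0.55 ± 0.22 (adjusted p 0.032) and lost its call under 10 of 14 alternatives. miR-539-3p stood at 0.23 ± 0.25 (adjusted p 0.40) and passed the test only under scaling to all features (0.71, adjusted p 0.032). That scaling moved the median of all microRNAs from -0.24 to 0.48 on the log2 scale, and the calls from 217 higher and 231 lower to 246 and 181. In the iN deletion comparison it moved the median from -0.027 to -0.31 and the calls from 73 higher and 105 lower to 33 and 182.

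**Figure D3:**
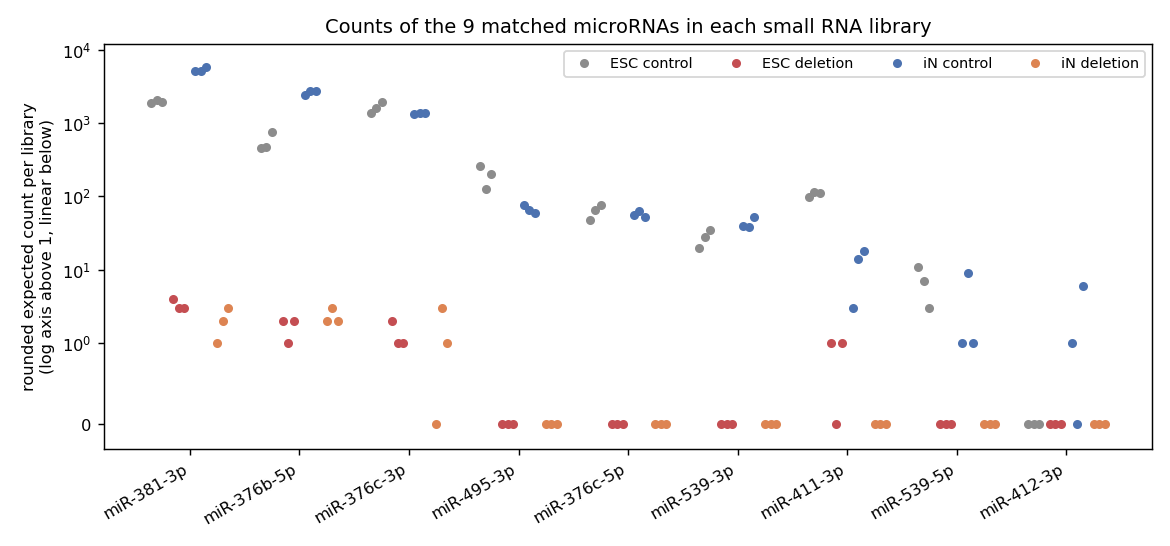
Rounded expected counts of the 9 matched microRNAs (horizontal axis) in each of the 12 small RNA libraries (vertical axis, logarithmic above 1 and linear below), coloured by group. All deletion libraries lie at 4 counts or fewer, and in control iNs the levels run from 5065 counts or more for miR-381-3p down to 6 or fewer for miR-412-3p.

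With the deletion, Slc24a2, Rgs8 and Cdk19 were higher in iNs and Vldlr, Bcat1 and Polr3g lower, by 1.66-fold (Polr3g) to 2.39-fold (Bcat1). The 3 with higher RNA are described first, with levels as CPM scaled by edgeR's TMM factors. Bulk RNA cannot tell fewer cells expressing a gene from less RNA per cell.

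Slc24a2 encodes NCKX2, a plasma membrane exchanger that removes calcium from neurons in exchange for sodium, together with potassium. Its level was 155, 179 and 183 CPM in control iNs and 327, 337 and 329 CPM in deletion iNs. The groups did not overlap, and the fitted log2 fold change was 0.94 ± 0.062 (SE, n = 3 against 3). In ESCs it was almost silent, with 11, 6 and 7 counts in control and 5, 2 and 5 in deletion libraries, too few to pass the count filter. Control iNs exceeded control ESCs by 8.64 ± 0.14 on the log2 scale (adjusted p 1.9e-14, edgeR), the largest such difference of the 6 genes.

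Rgs8 encodes a GTPase-activating protein that shortens signalling by G protein alpha subunits. It stood at 15.3, 15.4 and 14.98 CPM in control iNs and at 29.99, 32.0 and 32.4 CPM in deletion iNs, a log2 fold change of 1.05 ± 0.077. The 3 control libraries lay close together, and every deletion library lay well above them. In ESCs it had 11, 7 and 7 counts in control and 12, 11 and 8 in deletion libraries, overlapping groups (log2 fold change 0.24 ± 0.32, adjusted p 0.80). Control iNs exceeded control ESCs by 5.07 ± 0.17 (adjusted p 1.2e-11).

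Cdk19, a paralog of Cdk8 in the Mediator kinase module, followed another order. It was at 11.1, 11.1 and 12.8 CPM in control iNs and at 26.4, 29.0 and 24.6 CPM in deletion iNs (log2 fold change 1.19 ± 0.096). Control ESCs had 23.5, 20.3 and 22.2 CPM and deletion ESCs 21.6, 20.9 and 19.7 CPM. The ESC groups overlapped (-0.10 ± 0.069, adjusted p 0.51), control iNs lay below them and deletion iNs above. Between control cells Cdk19 was lower in iNs than in ESCs by -0.92 ± 0.094 (adjusted p 1.1e-06).

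Vldlr, a receptor that binds Reelin and passes its signal to the adaptor Dab1 in migrating neurons, had the matched region with the highest −log10 p and the most abundant matched microRNA of the 6, and its RNA was lower with the deletion. It stood at 161, 150.3 and 139 CPM in control iNs and at 75.3, 71.3 and 78.5 CPM in deletion iNs (log2 fold change -1.0 ± 0.065). In ESCs it was near the floor, at 2.86, 3.26 and 2.88 CPM in control and 1.83, 2.44 and 1.88 CPM in deletion libraries. These ESC groups did not overlap either, as was the case for 23.9% of genes tested there, and the difference of -0.56 ± 0.17 did not pass the test (adjusted p 0.16). Control iNs exceeded control ESCs by 5.64 ± 0.088 (adjusted p 1.6e-14).

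Bcat1, the cytosolic enzyme that moves the amino group of leucine, isoleucine and valine onto alpha-ketoglutarate, was the most abundant of the 6 in ESCs. It had 183, 183 and 156 CPM in control iNs and 72.2, 78.6 and 67.6 CPM in deletion iNs (log2 fold change -1.26 ± 0.073, the largest change of the 6). Control ESCs had 320.4, 309 and 318 CPM and deletion ESCs 332, 326 and 318 CPM. The ESC groups overlapped (0.026 ± 0.033, adjusted p 0.75). Control iNs were below control ESCs by -0.87 ± 0.065 (adjusted p 4.9e-08), so Bcat1 ran down from ESCs through control iNs to deletion iNs with no overlap between these.

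Polr3g, a subunit of RNA polymerase III known for its high level in pluripotent cells, was higher in control iNs than in control ESCs. It stood at 115.6, 115.7 and 115.1 CPM in control iNs and at 69.2, 72.2 and 67.6 CPM in deletion iNs (log2 fold change -0.73 ± 0.054). Control ESCs had 64.9, 70.4 and 63.5 CPM and deletion ESCs 69.7, 77.4 and 76.1 CPM. Deletion iNs therefore overlapped both ESC groups, and control iNs stood apart above all 3. The ESC groups overlapped by a narrow margin (0.15 ± 0.063, adjusted p 0.27). The deletion library was the higher one in each of the 3 same-letter pairs, and with the replicate block the adjusted p was 0.072. Control iNs exceeded control ESCs by 0.80 ± 0.057 (adjusted p 2.9e-08).

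**Figure D4:**
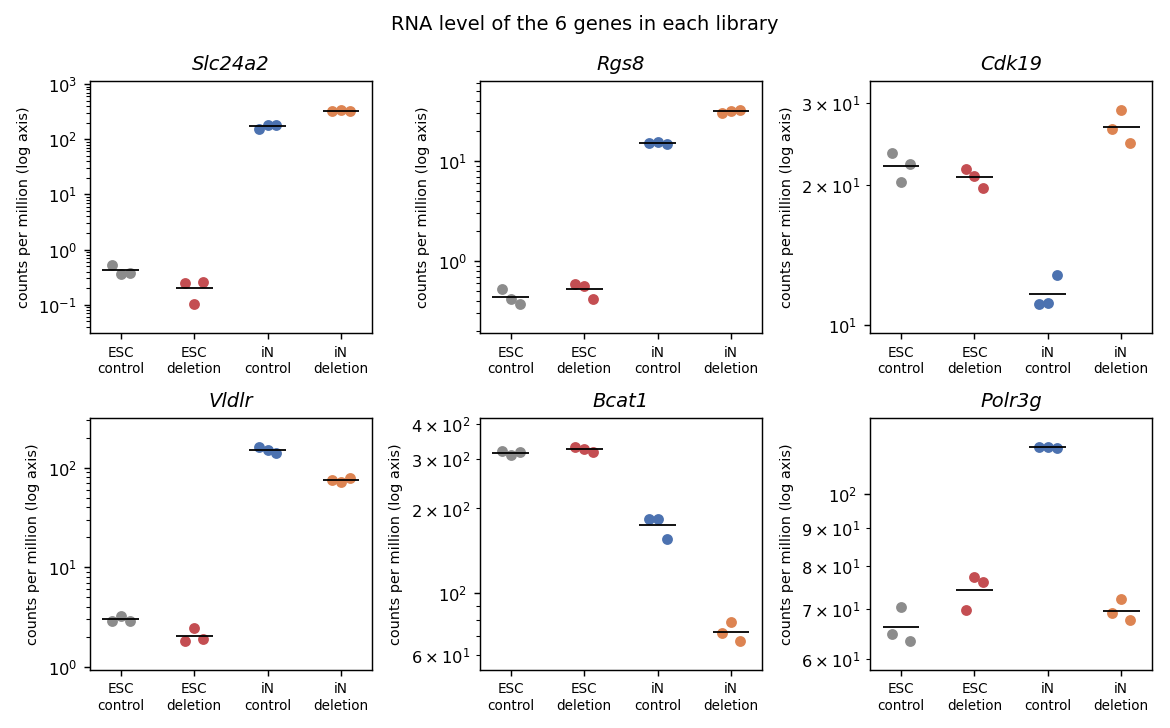
RNA level of each gene in CPM (vertical axes, logarithmic and different for each gene) in the 3 libraries of each group (horizontal axis); lines are group means. Slc24a2, Rgs8 and Vldlr lie at or below 3.26 CPM in ESCs and far higher in iNs, and Polr3g in deletion iNs lies at its ESC level.

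On the deposited TPM scale, which is per transcript length and so allows the genes to be compared with each other, the order in control iNs was Bcat1 at 70.0 ± 12.1 (SD, n = 3), Polr3g at 36.8 ± 2.55, Vldlr at 23.6 ± 2.50, Slc24a2 at 20.4 ± 4.01, Rgs8 at 3.04 ± 0.33 and Cdk19 at 2.15 ± 0.30. Vldlr and Slc24a2 overlapped in their libraries and did not differ beyond their spread. In deletion iNs Slc24a2 came first at 48.3 ± 3.75, followed by Bcat1 at 34.8 ± 3.92, Polr3g at 25.8 ± 0.94, Vldlr at 14.5 ± 2.30, Rgs8 at 7.42 ± 0.44 and Cdk19 at 5.68 ± 0.46. TPM is relative to the total of each library, and the median gene was 0.23 higher on the log2 scale in deletion than in control iNs. Relative to that median the TPM ratios ran from -1.24 for Bcat1 to 1.17 for Cdk19, in the same direction as the CPM for all 6 genes. In ESCs Rgs8 had 0.1, 0.12 and 0.06 TPM in control and 0.12, 0.24 and 0.32 in deletion libraries. The log2 ratio of these means was 1.28, unlike the fitted change of 0.24 ± 0.32 on counts. Each of these libraries held only 7 to 12 counts of Rgs8. For Slc24a2 the log2 ratio of mean TPM between control iNs and control ESCs was 7.22. That is below the fitted 8.64 ± 0.14 on counts, and control ESCs held 24 counts of Slc24a2 in all.

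The authors' deposited iN table gave log2 fold changes from -1.26 (Bcat1) to 1.18 (Cdk19) for the same genes. That table was computed from the same libraries and is no independent support.

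In ESCs none of the 5 members tested was called by edgeR, where 1.91% of 16185 genes were called. At an unadjusted p under 0.05 the count was 2 of 5, beside 16.9% of all genes. DESeq2 as run here gave 3 of the members (Bcat1, Polr3g and Cdk19) an adjusted p and called none. The authors' deposited DESeq2 values, from the same libraries, gave every member an adjusted p in ESCs. These ran from 0.081 for Vldlr to 0.85 for Rgs8, with Slc24a2 at 0.32. With the replicate letter as a block, 6.30% of genes were called and still no member. With the block the adjusted p by edgeR was 0.072 for Polr3g and 0.079 for Vldlr. Over all alternatives it ranged from 0.072 to 0.54 for Polr3g and from 0.072 to 0.35 for Vldlr. The called background also moved without most single libraries. It was 309 genes with all 6 libraries. Without control replicate A, B or C it was 137, 91 and 155, and without deletion replicate A, B or C 315, 90 and 160. Fibroblast-associated RNA moved with this comparison, besides the neuron and pluripotency marker sums given above. The 5 marker genes, of which none was at 0, together had 45.6 to 53.6 CPM without the deletion and 79.1 to 90.4 with it, and their part in it was not tested.

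The change in iNs minus the change in ESCs was -1.30 ± 0.090 for Bcat1, -0.90 ± 0.077 for Polr3g, -0.46 ± 0.16 for Vldlr, 0.80 ± 0.27 for Rgs8 and 1.27 ± 0.12 for Cdk19 on the log2 scale. These differences include the contrast that chose the genes and are given without a test. Between control cells all 6 genes were called, 4 higher and 2 lower in iNs, where 89.0% of 17247 genes were called. This comparison shares its control iN and control ESC libraries with the deletion comparisons.

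**Figure D5:**
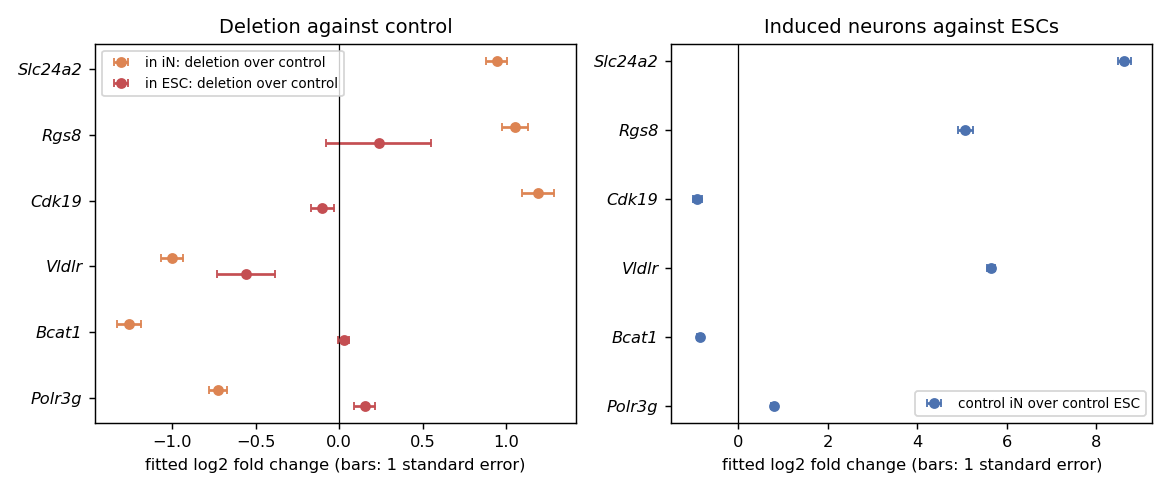
Fitted log2 fold change (horizontal axes, bars 1 SE) of each gene for deletion over control in iNs and ESCs (left) and for control iNs over control ESCs (right). In iNs the points lie from -1.26 to 1.19, in ESCs from -0.56 to 0.24 for the 5 genes tested, and between control cells from -0.92 to 8.64.

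The other genes of each member's pathway or family were counted next. The lists, without the members themselves, were set beside all genes tested in iNs, of which 12.36% rose and 13.28% fell with a median log2 fold change of 0.0042. Of the Reelin pathway 0 of 12 genes rose or fell by edgeR and by DESeq2 (2 at an unadjusted p under 0.05, beside 37.4% of all genes), with a median of 0.028. Lrp8, the second Reelin receptor, stood at -0.011 ± 0.058 (adjusted p 0.91) and the adaptor Dab1 at 0.038 ± 0.091 (adjusted p 0.80, edgeR). Reln itself was low, at 0.51 TPM in control iNs and 0.807 in deletion iNs, and was not called (0.10 ± 0.14, adjusted p 0.64, edgeR).

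In the Mediator kinase module 1 of 6 genes fell and the others were not called. It was the cyclin Ccnc (-0.23 ± 0.069, adjusted p 0.023, edgeR). Cdk8, the paralog of Cdk19, stood at 0.018 ± 0.063 (adjusted p 0.86). In ESCs Med13l of this module rose with the deletion (0.22 ± 0.035, adjusted p 0.016), and it was the one gene of the 6 lists that was called there by the fit without a block. Its change in iNs was 0.026 ± 0.058 (adjusted p 0.78).

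Among RGS proteins, which all act on G protein alpha subunits, 7 of 14 rose and 1 fell in iNs, with a median of 0.13. Rgs16, which is also in the matched table, rose by 1.25 ± 0.23 (adjusted p 0.00081, edgeR) and Rgs4, an abundant neuronal member at 94.5 TPM in control iNs, by 0.43 ± 0.061 (adjusted p 0.00011). Rgs2 fell by 1.14 ± 0.098 on the log2 scale (adjusted p 1.0e-06). Rgs2, Rgs4 and Rgs16 were picked after their values had been seen.

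Of the sodium/calcium exchangers 3 of 5 rose and none fell, with a median of 0.42. These were Slc24a3 (0.42 ± 0.066, adjusted p 0.00026, edgeR), Slc8a3 (0.55 ± 0.077, adjusted p 8.7e-05) and the mitochondrial exchanger Slc8b1 (1.09 ± 0.17, adjusted p 0.0003). They are named because the count is small.

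In the catabolism of branched-chain amino acids 5 of 19 genes rose and 2 fell by edgeR, with a median of 0.052, and 4 in all were called by DESeq2. Bcat2, the mitochondrial counterpart of Bcat1, stood at 0.022 ± 0.12 (adjusted p 0.91, edgeR). Of the RNA polymerase III list 3 of 15 rose and 1 fell, with a median of -0.013. Polr3gl, which takes the place of Polr3g in the other form of the enzyme, stood at 0.17 ± 0.19 (adjusted p 0.56). Those that rose were Maf1, a repressor of this polymerase (0.38 ± 0.080, adjusted p 0.0023), Brf1 (0.33 ± 0.073, adjusted p 0.0038) and Polr3b (0.21 ± 0.065, adjusted p 0.025, edgeR). Polr3k fell (-0.34 ± 0.058, adjusted p 0.00052).

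Other genes of the matched table that share a microRNA with a member were counted in the same way. For miR-539-5p 2 of 27 other genes rose and 7 fell in iNs, with a median of -0.095. For miR-381-3p with miR-539-3p, listed jointly, 7 of 52 rose and 13 fell. For miR-376c-3p 0 of 28 rose and 8 fell, and for miR-495-3p 6 of 77 rose and 24 fell. For the 3 remaining rows the counts were 3 and 3 of 19 for miR-411-3p, 5 and 2 of 17 for miR-376b-5p with miR-376c-5p, and 5 and 3 of 21 for miR-412-3p, with rises first. In the whole table without the members 13.93% of 610 gene entries rose and 22.3% fell.

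The genes whose profile over the 12 RNA libraries was most like each member were found by the root mean square difference of centred log2 CPM among 10729 genes. Polr3g had the closest, Hsd17b12 at 0.085. Bcat1 was nearest to Vcan at 0.12 and Ifrd1 at 0.16, and Cdk19 to Kndc1 and Fbxo32, at 0.18 and 0.19. The profiles of Rgs8 (Gabrg3 and Spock2, both 0.24), Vldlr (Prkg2 at 0.28, Rprm at 0.29) and Slc24a2 (Ret and Opcml, both 0.38) had no neighbour as close. Rgs8, Vldlr and Slc24a2 also had the lowest ESC levels and the widest spans between cell types of the members. The part of low counts and wide spans in these distances was not tested. The profiles include the iN libraries that chose the genes.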

How the data were processed

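RNA, small RNA and Ago2 CLIP data from mouse ESCs and iNs were used as deposited. Tools listed in the submitters' processing notes were RSEM 1.2.30, STAR 2.4.1d, cutadapt 1.4.2, SAMtools and DESeq2, with mm10 as the build and no roles stated. Per the file headers, each library's file held the authors' expected counts and posterior mean counts, estimated and not whole, and for RNA a TPM value. The authors' DESeq2 tables held a log2 fold change, p-values and a mean normalised signal, and the deposited CLIP lists gave every region its −log10 p and log2 fold. Strand setting and annotation release were not given in the sources used here, so counts of overlapping genes and near-identical copies are uncertain. The small RNA files name features by accession; names were found by matching the authors' deposited means to counts, for 826 of 1907 mature accessions.

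Rounded expected counts went into edgeR 4.0.16 under R 4.3.3 (TMM scaling, a filterByExpr minimum of 10 counts, the quasi-likelihood test and a Benjamini-Hochberg threshold of 0.05), each comparison on its 6 libraries. SE is the size of the log2 fold change divided by the root of F. The fits were tested on simulated data; there the share of false calls exceeded the threshold in the iN deletion comparison and, by less, between control cells, so gene calls in these comparisons may hold more false ones than the threshold states. Alternatives included DESeq2 1.42.0 size factors and Wald test, other filters and scalings, each library left out, and the replicate letter as a block. For the small RNA data, posterior mean counts and 1 fit of all 12 libraries were added after the data had been seen. The letters were taken to pair the ESC RNA libraries, since same-letter deviations from the group means correlated at 0.35, 0.11 and 0.14, above 0.1 for every letter; no label says what a letter marks. File coordinates were read as counting from 0 and are given from 1; gene bounds and sequences are RefSeq's on GRCm38.p6, which mm10 denotes.

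The members, microRNAs, pathway lists and markers were chosen with earlier results of these data known. Named were the 6 genes, their microRNAs, 2 genes of most similar profile for each (mean log2 CPM of at least 2, prior count 2, no Gm or Rik symbol; 1 of these is not reported here), and list genes called in the ESC deletion comparison; paralogs and partners named beyond this were added with their values known.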

Additional observations from a re-analysis of the deposited data

Results flagged for a closer look

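For Slc24a2 the deletion libraries lay above the control libraries in iNs and below them in ESCs, on the CPM scale and without overlap. In iNs each deletion library (327, 337 and 329 CPM) lay above each control library (155, 179 and 183 CPM). In ESCs each deletion library (5, 2 and 5 counts) lay below each control library (11, 6 and 7 counts), on a total of 12 against 24 counts. Groups without overlap were found for 40.8% of all genes in iNs and 23.9% in ESCs. On the deposited TPM scale the ESC groups overlapped, at 0.12, 0.15 and 0.14 in control and 0.14, 0.05 and 0.1 in deletion libraries. The change in iNs minus the change in ESCs was 1.97 ± 0.39 on the log2 scale. The difference was not tested, since the iN contrast chose the gene. Without the count filter the ESC change was -1.04 ± 0.55 (adjusted p 0.53, edgeR), and in 1 fit of all 12 libraries the adjusted p was 0.30, so the ESC difference did not pass the test at this depth.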

How the results depend on the processing

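All 6 genes kept their direction in iNs under 13 alternatives, 3 higher and 3 lower; without single libraries Bcat1 ranged from -1.33 to -1.21 and Cdk19, the most variable, from 1.13 to 1.26 on the log2 scale. No alternative called a member in ESCs, and all called the 6 genes between control cells. The number of all genes called in ESCs was 309, and became 504 without a filter, 1019 with the replicate block, and 90 to 315 without single libraries. The replicate block changed no call of a member; for small RNA, where the letters were not taken to pair, it moved the ESC deletion calls from 73 to 179 and ended the call of miR-376c-5p between control cells (adjusted p 0.065). Requiring a log2 fold of 3 and a −log10 p of 5 left 2 of 8 rows, both of Vldlr. The overlap of regions over input changed nothing, since both deposited lists hold the same regions. Seed matches under other settings were not run, as no genome was used here. Depth limits miR-539-5p and miR-412-3p, and Slc24a2 and Rgs8 in ESCs.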
